A study of Mus musculus with 4 samples.

Results

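Transcripts of 40 genes of the cell cycle and DNA replication were followed in libraries described as tumor-associated macrophages (TAMs). These came from subcutaneous tumors of NB9464, a murine neuroblastoma line in which MYCN is amplified. The members were the rows of the count table whose Ensembl identifier carries 1 of 40 chosen gene symbols, 40 of 54532 genes, and they comprise 20 genes of S phase and DNA replication and 20 genes of G2 and mitosis. Tumors arose from 4000000 cells implanted in untreated mice of C57BL/6 background, a few weeks old, and were removed on day 40. The comparison asks how loss of the kinase Syk in myeloid cells alters TAM transcripts, with 2 libraries labelled SYK WT (M7 and M8, SykMC-WT mice) and 2 labelled SYK KO (M9 and M10, SykMC-KO mice). In SykMC-KO mice, floxed *Syk* is deleted by LysM-Cre, which is driven by the promoter of lysozyme M (*Lyz2*), so deletion reaches lysozyme M-expressing myeloid cells in general and not macrophages alone. Whether the SYK WT mice carry Cre or floxed alleles is not stated in the sources used here. TAMs were taken with magnetic beads against CD11b and F4/80, although the same label then speaks of RNA from BMDMs (bone marrow-derived macrophages) and the series is named after an adoptive transfer. Nothing says whether the 2 libraries of a genotype come from separate mice, so p-values measure the spread between these libraries, which may be technical.

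Cells copy their genome once per division. Before S phase, ORC, Cdc6 and Cdt1 load the Mcm2 to Mcm7 helicase onto DNA, and Cdc45 and the GINS complex then join it to form the active helicase, while Pcna clamps polymerases to the new strand. In G2 and mitosis, Cdk1 with cyclins A and B, the Polo-like and Aurora kinases, the spindle checkpoint and the anaphase-promoting complex (APC/C) order chromosome segregation. E2F factors drive many S-phase genes, and the DREAM and MuvB complexes with B-Myb and FoxM1 act at many G2/M genes. Most tissue macrophages divide slowly, and some populations of macrophages in tumors proliferate in place.

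The libraries held 20755886 to 23518045 counts, with 23018 and 23026 genes detected in the SYK WT libraries and 20616 and 19553 in the SYK KO libraries. *Syk*, the targeted gene, had 765 and 569 counts in M7 and M8 and 4033 and 2944 in M9 and M10 (log2 fold change 2.80, edgeR adjusted p = 0.000674), so it was higher in the libraries labelled SYK KO. *Lyz2*, whose promoter drives the Cre, had 8109 and 5115 counts in M7 and M8 and 178 and 371 in M9 and M10 (log2 fold change -4.13, edgeR adjusted p = 0.00156), so it was lower in the libraries labelled SYK KO. Counts per gene do not separate exons, so they cannot show whether the floxed part of *Syk* was deleted. Every direction here is given for the libraries as labelled. All 10 macrophage markers and all 6 pan-leukocyte genes were higher in the SYK KO libraries, 6 of 8 fibroblast markers were lower and the other 2 did not pass the test. The summed level per exon length of the macrophage markers was 1660 to 2475 TPM (counts per exon length, scaled to the same total in each library) in the SYK WT libraries and 5663 to 12219 TPM in the SYK KO libraries, whereas the fibroblast sum was 6359 to 7078 TPM and 1074 to 1138 TPM. Of the other lists, 5 of 6 T cell markers, 5 of 5 neutrophil markers and 1 of the 3 tested B cell markers were higher in SYK KO libraries, and 2 of 6 endothelial markers were lower. The sympathoadrenal markers *Th* and *Dbh* had 0 counts in all 4 libraries, which allows up to 3 counts or 0.109 to 0.163 CPM (counting error only), and the sum of that list was carried by *Hand2*, with 7182, 7403, 3666 and 5257 counts in M7, M8, M9 and M10. Mitochondrial transcripts took 2.20% and 2.34% of the counts in M7 and M8 and 6.00% and 15.9% in M9 and M10. The fibroblast sum thus exceeded the macrophage sum in both libraries labelled SYK WT. There *Col1a1* had 5662 and 6641 CPM and the leukocyte gene *Ptprc* 32.3 and 23.3 CPM. In both libraries labelled SYK KO the macrophage sum was the larger. By these markers the SYK WT libraries do not look like a pure macrophage preparation, and the genotypes are not like cell mixtures. The part of cell mixture and RNA quality in the results that follow was not tested. In such bulk RNA a larger share of dividing cells and more RNA per dividing cell cannot be told apart.

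RefSeq promoter windows were matched by symbol for 32 members, 16 of each phase. They were read on GRCm38.p6 from 250 bases before to 30 bases after the start site. On either strand, 1 of the E2F octamers TTTGGCGC, TTTCGCGC, TTTCCCGC and TTTGCCGC occurred in 6 of 16 S-phase members (37.5%), in 1 of 16 G2/M members (6.2%) and in 2.4% of 27025 genes. The cell cycle homology region (CHR), the kind of element MuvB complexes bind, was searched as the hexamer TTTGAA, the hexamer TTCGAA or the hexamer TTTAAA, and it occurred in 16 of 16 G2/M members, in 8 of 16 S-phase members and in 30.9% of genes. CCAAT boxes occurred in 15 of 16 G2/M members (93.8%), in 11 of 16 S-phase members (68.8%) and in 39.7% of genes. Printed here are the windows of the 2 S-phase members with an E2F octamer and the 2 G2/M members with a CHR hexamer that had the highest mean CPM, shown to set an S-phase and a G2/M promoter type beside each other. Capitals mark E2F octamers and CCAAT boxes in *Mcm6* and *Mcm3*, and CHR hexamers and CCAAT boxes in *Mki67* and *Top2a*.
Mcm6, chr1:128359676-128359955, minus strand: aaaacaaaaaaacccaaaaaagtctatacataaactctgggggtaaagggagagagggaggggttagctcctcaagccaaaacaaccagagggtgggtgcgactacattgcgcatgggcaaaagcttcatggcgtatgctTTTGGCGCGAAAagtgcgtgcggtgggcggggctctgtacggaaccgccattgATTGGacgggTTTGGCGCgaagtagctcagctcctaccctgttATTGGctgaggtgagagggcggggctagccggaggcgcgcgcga
Mcm3, chr1:20820283-20820562, minus strand: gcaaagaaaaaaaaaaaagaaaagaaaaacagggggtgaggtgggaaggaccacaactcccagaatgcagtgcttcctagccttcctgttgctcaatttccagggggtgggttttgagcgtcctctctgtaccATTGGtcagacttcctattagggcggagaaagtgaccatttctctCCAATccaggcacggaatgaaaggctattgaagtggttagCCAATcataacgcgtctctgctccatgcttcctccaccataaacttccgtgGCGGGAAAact
Mki67, chr7:135716350-135716629, minus strand: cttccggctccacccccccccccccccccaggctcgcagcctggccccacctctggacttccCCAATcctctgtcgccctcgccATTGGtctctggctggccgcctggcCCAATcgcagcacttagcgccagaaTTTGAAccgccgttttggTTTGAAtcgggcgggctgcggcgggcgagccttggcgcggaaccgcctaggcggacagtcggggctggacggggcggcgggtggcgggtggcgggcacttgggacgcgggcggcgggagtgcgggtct
Top2a, chr11:99024160-99024439, minus strand: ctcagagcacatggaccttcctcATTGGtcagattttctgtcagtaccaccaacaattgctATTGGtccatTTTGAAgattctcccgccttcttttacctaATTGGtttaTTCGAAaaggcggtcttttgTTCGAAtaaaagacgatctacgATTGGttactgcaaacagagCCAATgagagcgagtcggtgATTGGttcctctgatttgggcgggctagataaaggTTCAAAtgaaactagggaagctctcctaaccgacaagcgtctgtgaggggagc
The *Mcm6* window has 3 E2F matches, beginning 110, 106 and 47 bases before the start, and the first 2 overlap each other. The *Mcm3* window has 1 E2F match, 20 bases into the transcript, and 3 CCAAT boxes before the start. *Mki67* has 2 TTTGAA hexamers, 116 and 98 bases before the start, and 3 CCAAT boxes upstream of them. *Top2a* has 4 CHR hexamers and 6 CCAAT boxes, the densest window of the 4. A match is a description of letters and not a binding site. A CHR hexamer occurred in 14 of the 21 matched members called higher (66.7%) and in 10 of the 11 not called (90.9%), and an E2F octamer in 5 of 21 (23.8%) and 2 of 11 (18.2%).

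All 40 members passed the filter on low counts, with 124 to 5465 counts per library. Levels are given as TMM-normalized CPM (counts scaled by library total and TMM factor), a scaling that takes most genes as equal between libraries. On this scale 27 of 40 members were higher in the SYK KO libraries (67.5%), where 22.7% of all 16451 genes tested were, and 13 did not pass an adjusted p of 0.05 in edgeR, a threshold that 39.4% of all genes passed in either direction. Called lower were 0 members, against 16.7% of all genes, and 0 members were lower at an unadjusted p under 0.05 in edgeR or called lower by DESeq2. The calls divided evenly between phases, with 14 of 20 S-phase members and 13 of 20 G2/M members higher. The median log2 fold change was 0.84 for S-phase members and 0.76 for G2/M members, beside 0.016 for all genes tested. Both SYK KO libraries lay above both SYK WT libraries for 38 members, 19 of each phase, as they did for 38% of all genes, and the groups overlapped for *Tk1* and *Ccnb1*. These directions rest on the scaling. With libraries scaled by library size alone, 5 members (12.5%) stayed called higher, where 10.2% of all genes were higher and 32.9% lower, and 29 of 40 fold changes were positive. With libraries scaled by the geometric mean of the 10 macrophage markers or of the 6 pan-leukocyte genes, 0 members were higher and all 40 were called lower. Those scalings called 87.0% and 92.8% of all genes lower and 0.766% and 0.334% higher, so the count of members lower is near that background.

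**Figure D1:**
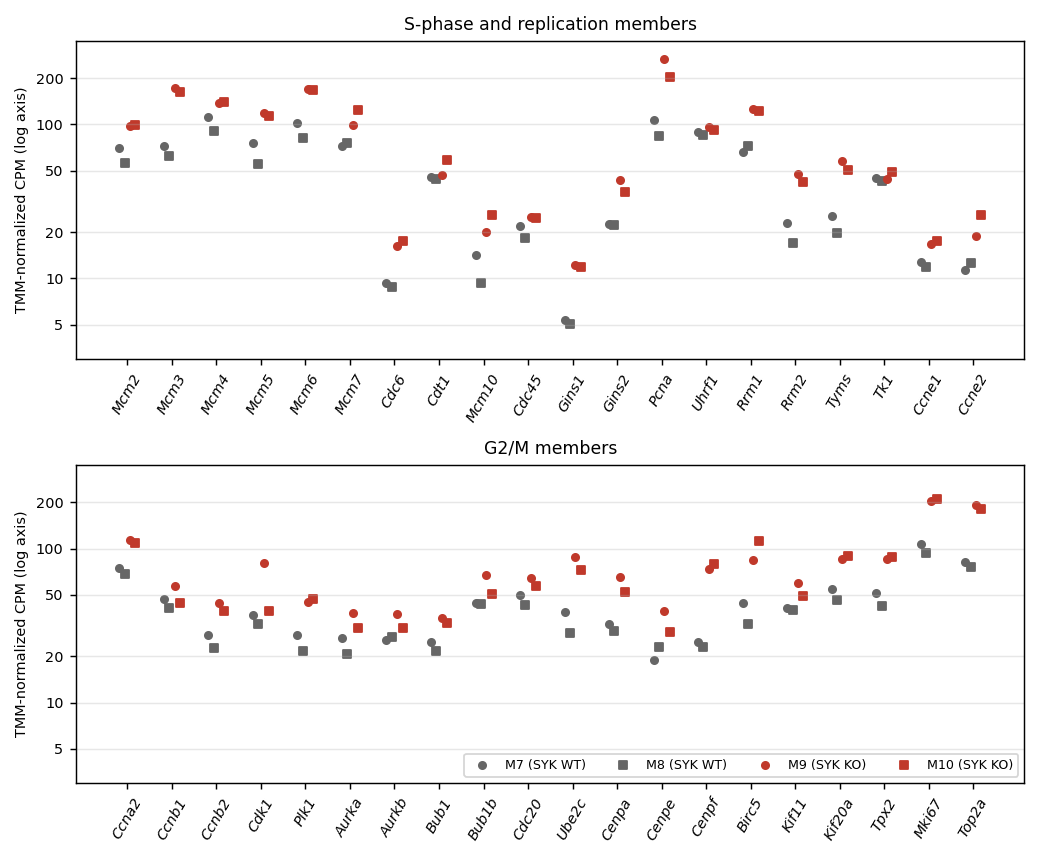
TMM-normalized CPM (vertical, log axis) of each member in the SYK WT libraries M7 and M8 (grey) and the SYK KO libraries M9 and M10 (red), with S-phase members above and G2/M members below. Points are single libraries; both red points lie above both grey points for 38 of 40 members on this scale, whereas all 40 members, and 87.0% of all genes, are called lower in SYK KO when libraries are scaled by macrophage markers.

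Of the 6 subunits of the Mcm2 to Mcm7 helicase, 5 were higher in the SYK KO libraries on the TMM scale, where 22.7% of all genes were. All 6 were called lower under macrophage marker or pan-leukocyte scaling, as were 87.0% and 92.8% of all genes. *Mcm3* (chr1:20802968-20820312, GRCm38, ENSMUSG00000041859) had 72.9, 62.6, 172 and 162 CPM in M7, M8, M9 and M10, the widest gap of the 6 (log2 fold change 1.30, SE 0.16, adjusted p = 0.00243, edgeR). *Mcm6* had 102, 82.2, 169.6 and 169 CPM (log2 fold change 0.88, SE 0.17, adjusted p = 0.0104). *Mcm5* had 75.6, 55.7, 119 and 114 CPM (log2 fold change 0.83, SE 0.19, adjusted p = 0.0169). In each of these 3 genes the SYK KO libraries differed by less than the SYK WT libraries did, and the groups did not overlap. Of all genes, 38% had both SYK KO libraries above both SYK WT libraries in the same way, and 37.2% had them below. *Mcm2* had 70.8, 55.9, 98.0 and 99.0 CPM (log2 fold change 0.64, adjusted p = 0.0283) and *Mcm7* had 72.1, 75.5, 98.7 and 124 CPM (log2 fold change 0.59, adjusted p = 0.0356). *Mcm4* had 111, 90.7, 138 and 139 CPM and was not called (log2 fold change 0.46, SE 0.17, adjusted p = 0.0724), although its groups did not overlap. The subunits assemble as a ring with 1 copy of each. Per exon length their mean levels over the 4 libraries ran from 31.5 TPM for *Mcm2* to 92.4 TPM for *Mcm4*. These values divide by all annotated exon bases, 6956 for *Mcm2* and 3589 for *Mcm4*, so they are not ratios of subunit transcripts. The exons of *Mcm7* overlap *Ap4m1* and *Cops6* on the opposite strand, and how strand was counted is not stated, so reads of the overlap may be shared.

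Of the factors that load the helicase, *Cdc6* was higher and *Cdt1* was not called on the TMM scale. Both were called lower under macrophage marker or pan-leukocyte scaling, as were 87.0% and 92.8% of all genes. *Cdc6* had 9.37, 8.75, 16.2 and 17.6 CPM (log2 fold change 0.90, SE 0.22, adjusted p = 0.0208), with the SYK KO libraries close to each other and well apart from the SYK WT libraries. *Cdt1* had 45.5, 44.0, 47.1 and 58.6 CPM (log2 fold change 0.24, SE 0.17, adjusted p = 0.303), and M9 lay only slightly above M7. *Gmnn*, which encodes geminin, the inhibitor of Cdt1, had 7.18, 4.76, 19.4 and 15.9 CPM and was higher (log2 fold change 1.56, SE 0.29, adjusted p = 0.00902). Of the 6 genes of the origin recognition complex, *Orc3* was lower, with 1190, 1097, 617 and 521 counts in M7, M8, M9 and M10 (log2 fold change -0.59, SE 0.15, adjusted p = 0.0252), and *Orc1*, *Orc2*, *Orc4*, *Orc5* and *Orc6* did not pass the test.

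Among genes that activate the helicase, *Gins1*, *Gins2* and *Mcm10* were higher and *Cdc45* was not called on the TMM scale. The macrophage marker and pan-leukocyte scalings called all 4 lower, with 87.0% and 92.8% of all genes. *Gins1*, a GINS subunit, had 5.36, 5.05, 12.3 and 11.9 CPM (log2 fold change 1.22, SE 0.26, adjusted p = 0.0132), the lowest CPM of any member in the SYK WT libraries. *Gins2* had 22.7, 22.1, 43.6 and 36.6 CPM (log2 fold change 0.84, SE 0.17, adjusted p = 0.0119). *Mcm10*, which helps start unwinding, had 14.1, 9.40, 20.1 and 25.8 CPM (log2 fold change 0.96, SE 0.27, adjusted p = 0.0329). *Gins1* was tight within both genotypes and *Gins2* within the SYK WT libraries only. *Mcm10* differed by more within the SYK WT libraries than *Gins1* did. *Cdc45* had 21.9, 18.2, 25.2 and 24.8 CPM (log2 fold change 0.32, SE 0.19, adjusted p = 0.217) and was the member of this group that did not pass the test. Of the other GINS genes, *Gins4* was higher (log2 fold change 0.67, SE 0.16, adjusted p = 0.0189) and *Gins3* had 11.7, 8.06, 8.54 and 9.26 CPM with overlapping groups (log2 fold change -0.15, adjusted p = 0.708). *Gins2* shares 2758 exon bases with *Gse1* on the opposite strand, a gene with 715, 674, 459 and 433 counts, so its value is uncertain.

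*Pcna*, the sliding clamp (chr2:132249162-132253314, GRCm38, ENSMUSG00000027342), had the highest mean level per exon length of the 40 members, 174 TPM. Its TMM-normalized level was 106, 84.2, 265 and 202 CPM in M7, M8, M9 and M10, 2.45 times as high on average in the SYK KO libraries (log2 fold change 1.29, SE 0.21, adjusted p = 0.00564). M9 was the highest of the libraries and M10 was still above both SYK WT libraries. In TPM the genotypes overlapped for *Pcna*. It was called lower under macrophage marker or pan-leukocyte scaling, as were 87.0% and 92.8% of all genes. *Uhrf1*, which recruits the maintenance methyltransferase Dnmt1 to newly copied DNA, had 89.6, 86.1, 96.7 and 92.2 CPM (log2 fold change 0.10, SE 0.15, adjusted p = 0.600). On the TMM scale all 4 libraries lay close together for *Uhrf1*, in contrast to *Pcna*, and both marker scalings called *Uhrf1* lower too. Of the replication genes beyond the members, *Fen1*, the flap endonuclease that trims Okazaki fragments, had 21.4, 18.6, 60.7 and 52.4 CPM (log2 fold change 1.50, SE 0.17, adjusted p = 0.00204), and *Lig1*, the ligase that seals them, had 44.0, 41.8, 66.7 and 80.9 CPM (log2 fold change 0.78, SE 0.17, adjusted p = 0.0132). Both partner with Pcna at the fork. Both had SYK KO libraries above SYK WT libraries on the TMM scale, and pan-leukocyte scaling called both lower.

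Of the 4 genes of nucleotide supply, 3 were higher on the TMM scale, where 22.7% of all genes were. All 4 were called lower under macrophage marker or pan-leukocyte scaling, as were 87.0% and 92.8% of all genes. *Tyms*, thymidylate synthase, had 25.3, 19.6, 57.9 and 50.3 CPM (log2 fold change 1.27, SE 0.19, adjusted p = 0.00452). *Rrm2*, the small subunit of ribonucleotide reductase, had 23.1, 17.0, 48.0 and 42.6 CPM (log2 fold change 1.18, SE 0.21, adjusted p = 0.00702). *Rrm1*, the large subunit, had 66.8, 72.0, 126 and 122 CPM (log2 fold change 0.84, SE 0.15, adjusted p = 0.00728). The SYK KO libraries lay above the SYK WT libraries in each of these 3 genes, as for 38% of all genes. *Tk1*, the thymidine kinase of the salvage route, had 45.1, 43.2, 44.4 and 49.5 CPM, with M9 between the SYK WT libraries (log2 fold change 0.088, SE 0.15, adjusted p = 0.681). It had the smallest log2 fold change of the 40 members. De novo and salvage routes to thymidylate thus differed in size, with a log2 fold change of 1.27 for *Tyms* and 0.088 for *Tk1*, and the difference between these genes was not tested.

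Of the E-type cyclins, which bind Cdk2 at the entry to S phase, *Ccne2* had 11.4, 12.5, 19.0 and 25.7 CPM and was higher (log2 fold change 0.90, SE 0.23, adjusted p = 0.0246). *Ccne1* had 12.8, 11.9, 16.8 and 17.6 CPM and was not called (log2 fold change 0.48, SE 0.21, adjusted p = 0.109). On the TMM scale both genes had SYK KO libraries above SYK WT libraries, as 38% of all genes did. Both cyclins were called lower under macrophage marker or pan-leukocyte scaling, as were 87.0% and 92.8% of all genes. *Cdk2* itself had 53.0, 67.1, 39.3 and 47.7 CPM and lay below in both SYK KO libraries without passing the test (log2 fold change -0.47, SE 0.19, adjusted p = 0.0973). *Ccne2* shares 609 exon bases with *Ints8* on the opposite strand.

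**Figure D2:**
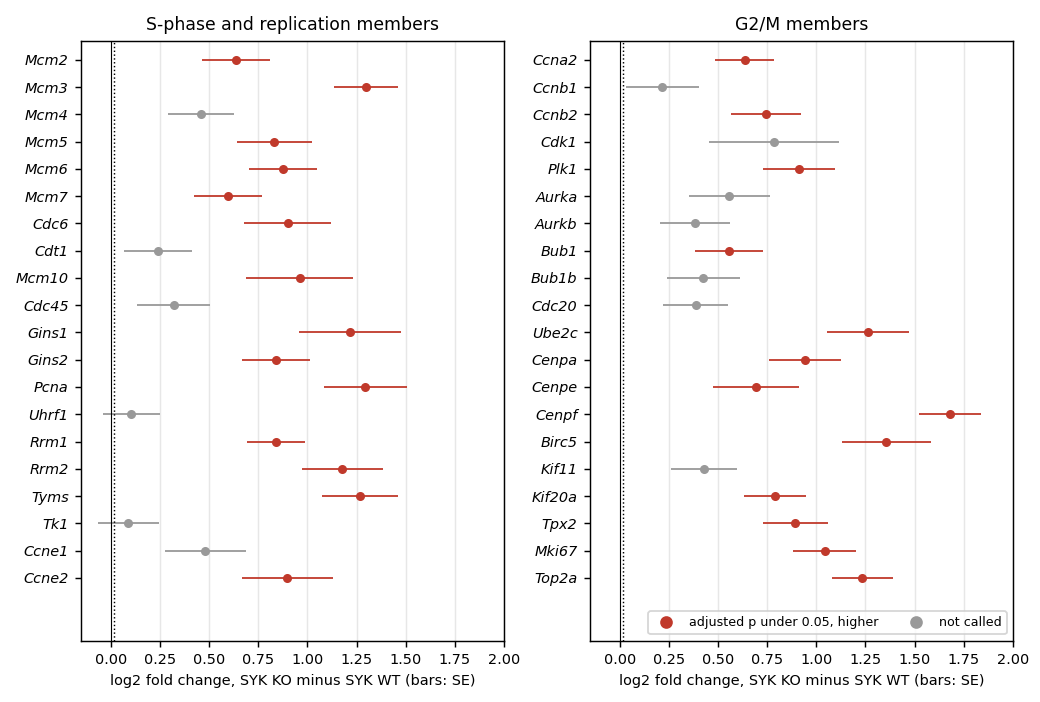
Log2 fold change (horizontal, SYK KO minus SYK WT, TMM scaling) of each member, with bars for the SE of the edgeR fit. Red points passed an adjusted p of 0.05 and grey points did not, the dotted line is the median of all genes tested, and on this scale all 40 points lie to the right of 0, whereas all 40 lie to the left of it under macrophage marker scaling, which calls 87.0% of all genes lower.

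Of the mitotic cyclins and their kinase, *Ccna2* and *Ccnb2* were higher and *Ccnb1* and *Cdk1* were not called on the TMM scale. All 4 were called lower under macrophage marker or pan-leukocyte scaling, as were 87.0% and 92.8% of all genes. *Ccna2*, cyclin A2, had 74.6, 68.3, 114 and 108 CPM (log2 fold change 0.64, SE 0.15, adjusted p = 0.0184). *Ccnb2*, cyclin B2, had 27.3, 22.7, 44.3 and 39.6 CPM (log2 fold change 0.74, SE 0.18, adjusted p = 0.0194). *Ccnb1*, cyclin B1, had 46.7, 40.9, 57.3 and 44.5 CPM (log2 fold change 0.22, SE 0.19, adjusted p = 0.389), with M10 between M7 and M8. The cyclins were thus separated between genotypes in *Ccna2* and *Ccnb2* and overlapping in *Ccnb1*. *Cdk1*, the mitotic kinase, had 37.2, 32.2, 80.6 and 39.1 CPM (log2 fold change 0.79, SE 0.33, adjusted p = 0.104). Library M9 was 2.06 times as high as M10 for *Cdk1*, the widest gap between the SYK KO libraries in any member, and *Cdk1* had the highest SE and the largest fold change of the members not called. Leaving out 1 library at a time gave log2 fold changes of 0.082 (without M9) to 1.23 (without M10). The pseudogene *Ccnb2-ps* was counted apart with 42, 86, 18 and 26 counts.

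Of the 3 mitotic kinases, *Plk1* was higher and *Aurka* and *Aurkb* were not called on the TMM scale. All 3 were called lower under macrophage marker or pan-leukocyte scaling, as were 87.0% and 92.8% of all genes. *Plk1*, which drives mitotic entry and spindle assembly, had 27.6, 21.6, 45.3 and 47.4 CPM (log2 fold change 0.91, SE 0.18, adjusted p = 0.0111). *Aurka*, the kinase of the centrosome and spindle poles, had 26.2, 20.6, 38.4 and 30.6 CPM (log2 fold change 0.56, SE 0.21, adjusted p = 0.0742). *Aurkb*, the kinase of the chromosomal passenger complex, had 25.4, 26.4, 37.3 and 30.4 CPM (log2 fold change 0.38, SE 0.18, adjusted p = 0.132). For all 3 kinases both SYK KO libraries were above both SYK WT libraries, as for 38% of all genes. The other subunits of the passenger complex were higher on the TMM scale, and each of them was called lower under macrophage marker or pan-leukocyte scaling. *Birc5*, survivin, had 44.3, 32.4, 84.2 and 112 CPM (log2 fold change 1.36, SE 0.23, adjusted p = 0.00607). *Incenp*, its scaffold, had 43.7, 41.1, 97.0 and 85.8 CPM (log2 fold change 1.11, SE 0.16, adjusted p = 0.00351). *Cdca8*, borealin, had 24.2, 22.4, 50.4 and 41.0 CPM (log2 fold change 0.97, SE 0.18, adjusted p = 0.00823). Of the 4 genes of the complex, 3 were called higher and its kinase was not, where 22.7% of all genes were called higher. *Incenp* and *Cdca8* were named as partners after their values were seen.

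In the spindle checkpoint and the APC/C, *Bub1* and *Ube2c* were higher and *Bub1b* and *Cdc20* were not called on the TMM scale. All 4 were called lower under macrophage marker or pan-leukocyte scaling, as were 87.0% and 92.8% of all genes. *Bub1*, a checkpoint kinase at kinetochores, had 24.8, 21.6, 35.2 and 33.0 CPM and the smallest log2 fold change of the members called (log2 fold change 0.56, SE 0.17, adjusted p = 0.0422). It no longer passed in 9 alternatives that kept its direction, DESeq2 size factors (adjusted p = 0.060) among them. *Bub1b*, which encodes BubR1, had 44.6, 43.6, 67.6 and 50.8 CPM (log2 fold change 0.43, SE 0.19, adjusted p = 0.114). *Cdc20*, the activator of the APC/C that the checkpoint holds back, had 49.9, 43.1, 64.5 and 57.1 CPM (log2 fold change 0.39, SE 0.16, adjusted p = 0.106). These 3 genes had SYK KO libraries above SYK WT libraries by small margins, an order that 38% of all genes showed. *Ube2c*, the ubiquitin-conjugating enzyme of the APC/C, had 38.5, 28.4, 88.6 and 72.2 CPM (log2 fold change 1.26, SE 0.21, adjusted p = 0.00591). Its SYK KO libraries averaged 2.40 times its SYK WT libraries, against 1.31 times for *Cdc20*. *Ube2c* overlaps exons of *Tnnc2*, which had 0 to 7 counts in these libraries.

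All 3 centromere genes were higher on the TMM scale, where 22.7% of all genes were, and *Cenpf* showed the largest change of the 40 members. All 3 were called lower under macrophage marker or pan-leukocyte scaling, as were 87.0% and 92.8% of all genes. *Cenpf* (chr1:189640606-189688086, GRCm38, ENSMUSG00000026605), a kinetochore protein of G2 and mitosis, had 24.8, 23.0, 73.8 and 79.4 CPM, 3.21 times as high on average in the SYK KO libraries (log2 fold change 1.68, SE 0.16, adjusted p = 0.00114). *Cenpa*, the histone H3 variant of centromeres, had 32.3, 28.9, 65.5 and 52.1 CPM (log2 fold change 0.94, SE 0.18, adjusted p = 0.00967). *Cenpe*, a kinetochore motor, had 19.0, 22.9, 39.2 and 28.6 CPM (log2 fold change 0.69, SE 0.22, adjusted p = 0.0466). The call of *Cenpe* was lost in 8 alternatives that kept its direction, DESeq2 size factors (adjusted p = 0.069) among them, and its log2 fold change was 0.36 without M9. The genotypes were far apart in *Cenpf* and nearest in *Cenpe*, where M10 lay above M8 by a small margin. The outer kinetochore genes *Ndc80*, with 12.4, 11.2, 26.2 and 26.4 CPM (log2 fold change 1.15, SE 0.19, adjusted p = 0.00578), and *Nuf2*, with 12.9, 10.6, 28.3 and 26.8 CPM (log2 fold change 1.23, SE 0.20, adjusted p = 0.00572), were also higher. Their partners *Spc24* and *Spc25* did not pass the test (log2 fold changes 0.31 and 0.62, adjusted p = 0.327 and 0.124).

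Among motors and assembly factors of the spindle, *Kif20a* and *Tpx2* were higher and *Kif11* was not called on the TMM scale. All 3 were called lower under macrophage marker or pan-leukocyte scaling, as were 87.0% and 92.8% of all genes. *Tpx2*, which activates Aurora A on the spindle, had 51.5, 42.4, 85.6 and 88.8 CPM (log2 fold change 0.89, SE 0.16, adjusted p = 0.00839). *Kif20a*, a kinesin of cytokinesis, had 54.7, 46.5, 85.6 and 89.3 CPM (log2 fold change 0.79, SE 0.16, adjusted p = 0.0111). *Kif11*, the kinesin that pushes spindle poles apart, had 41.3, 39.7, 59.8 and 49.1 CPM (log2 fold change 0.43, SE 0.17, adjusted p = 0.0873). All 3 had SYK KO libraries above SYK WT libraries, as 38% of all genes did. *Kif20a* shares 1271 exon bases with *Cdc23* on the opposite strand, which had 3549, 2972, 2067 and 2597 counts, so its value is uncertain.

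*Mki67* (chr7:135689784-135716361, GRCm38, ENSMUSG00000031004), the proliferation marker Ki-67 that coats mitotic chromosomes, had 107, 93.7, 203 and 209.8 CPM (log2 fold change 1.04, SE 0.16, adjusted p = 0.00467). *Top2a* (chr11:98992943-99024189, GRCm38, ENSMUSG00000020914), the topoisomerase that untangles sister chromatids, had 81.8, 75.7, 191 and 179 CPM (log2 fold change 1.23, SE 0.16, adjusted p = 0.00247). On the TMM scale the SYK KO libraries were 2.06 and 2.35 times as high as the SYK WT libraries on average. Both genes were called lower under macrophage marker or pan-leukocyte scaling, as were 87.0% and 92.8% of all genes. Both have CHR hexamers and CCAAT boxes in the windows printed with the promoters.

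Shares within a phase do not depend on how libraries are scaled, because each member is divided by the summed counts of its own list in the same library. Of the S-phase members, 6 had a larger share in both SYK KO libraries (15.9% of all genes tested were larger against that sum) and 7 had a smaller share (66.6% of all genes). *Pcna* made up 10.6%, 9.60%, 16.2% and 12.8% of the S-phase counts in M7, M8, M9 and M10. *Mcm3* made up 7.26%, 7.14%, 10.5% and 10.2%, so these clamp and helicase genes took more of the S-phase counts in SYK KO libraries. *Uhrf1* made up 8.93%, 9.82%, 5.92% and 5.82%. *Tk1* made up 4.49%, 4.93%, 2.72% and 3.12%, and *Cdt1* 4.53%, 5.02%, 2.88% and 3.70%. The gains of *Pcna*, *Mcm3*, *Mcm6*, *Gins1*, *Rrm2* and *Tyms* thus stood against smaller shares of *Mcm2*, *Mcm4*, *Cdt1*, *Cdc45*, *Uhrf1*, *Tk1* and *Ccne1*. Shares of a list add up to the whole, so larger shares of some members require smaller shares of others. All genes are not bound in this way, so their percentages are not a like background. A smaller share is also not a lower level, as *Mcm2* was called higher on the TMM scale (log2 fold change 0.64). Among the G2/M members, 5 had a larger share in both SYK KO libraries (14.6% of all genes did against the G2/M sum) and 9 a smaller share (69.4% of all genes). *Cenpf* made up 2.82%, 2.97%, 4.73% and 5.51% of the G2/M counts and *Top2a* 9.31%, 9.77%, 12.2% and 12.5%, and *Mki67*, *Ube2c* and *Birc5* were the others that took more. *Ccnb1* made up 5.31%, 5.28%, 3.67% and 3.09% and *Cdc20* 5.67%, 5.56%, 4.13% and 3.96%, and *Ccna2*, *Ccnb2*, *Aurka*, *Aurkb*, *Bub1*, *Bub1b* and *Kif11* also took less.

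The balance of the phases moved little. The summed G2/M level was 0.876 and 0.884 times the summed S-phase level in M7 and M8 and 0.955 and 0.909 times in M9 and M10. Both SYK KO libraries lay above both SYK WT libraries. The S-phase sum was 1004 and 877 CPM in M7 and M8 and 1634 and 1585 CPM in M9 and M10. The G2/M sum was 879 and 775 CPM in M7 and M8 and 1561 and 1442 CPM in M9 and M10. With 2 libraries per genotype an exact two-sided permutation test cannot give a p under 0.333, so these sums were not tested.

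Set against other transcripts of the same library, the members moved in opposite directions. The S-phase sum was 0.885 and 1.09 times the macrophage marker sum in M7 and M8 and 0.171 and 0.278 times in M9 and M10. It was 2.88 and 3.39 times the pan-leukocyte sum in the SYK WT libraries and 0.387 and 0.524 times in the SYK KO libraries. It was 0.0800 and 0.0607 times the fibroblast marker sum in the SYK WT libraries and 0.403 and 0.320 times in the SYK KO libraries. The fibroblast sum was carried by 2 collagens. *Col1a1* had 5662, 6641, 1811 and 2476 CPM and *Col3a1* 6158, 7118, 1990 and 2121 CPM in M7, M8, M9 and M10. Of the 8 fibroblast markers 6 were called lower, and *Dcn* and *Lum* were not called (log2 fold changes -0.28 and -0.63). Cell cycle transcripts were therefore fewer per macrophage or leukocyte marker transcript, and more per fibroblast marker transcript, in the libraries labelled SYK KO. The first of these is not particular to the members. Scaling by macrophage markers or by pan-leukocyte genes called 87.0% and 92.8% of all genes lower. The marker sums themselves moved, from 803 to 1135 CPM in the SYK WT libraries to 5702 to 9531 CPM in the SYK KO libraries for macrophage markers. For fibroblast markers they were 12558 to 14452 CPM and 4058 to 4960 CPM. Which cells carried the cell cycle transcripts cannot be told apart in these libraries.

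**Figure D3:**
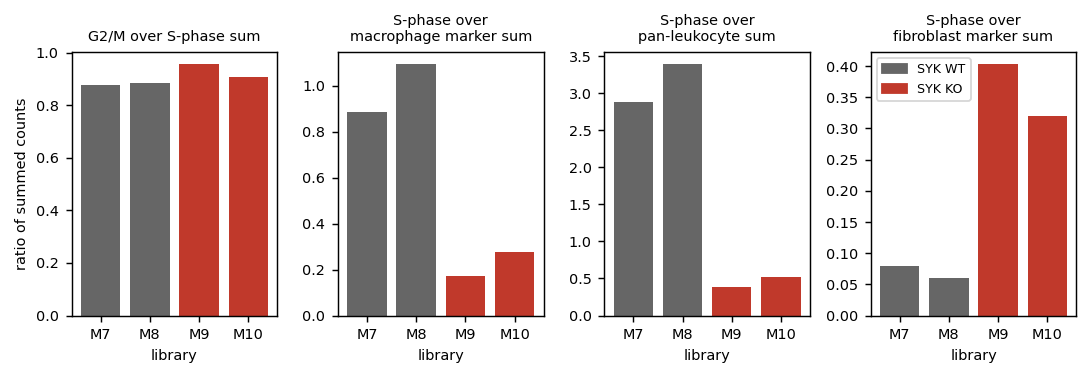
Ratios of summed TMM-normalized CPM within each library (vertical, starting at 0) for the SYK WT libraries (grey) and the SYK KO libraries (red). The ratio of G2/M to S-phase members runs from 0.876 to 0.955. The S-phase sum is lower against macrophage and pan-leukocyte genes and higher against fibroblast markers in SYK KO libraries. Scaling by the macrophage or pan-leukocyte genes calls 87.0% and 92.8% of all genes lower.

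The median of all genes moved with the scaling as the members did. It was 0.016 under TMM, -0.026 under DESeq2 size factors, -0.52 under library size alone, -2.78 under macrophage markers and -3.60 under pan-leukocyte genes. The S-phase median was 0.82, 0.83, 0.83, 0.82 and 0.82 above it in the same order. The G2/M median was 0.75, 0.75, 0.75, 0.69 and 0.71 above it. A change of scaling moves the log2 fold changes of all genes by nearly the same amount, so these distances are alike by construction and are not 5 separate checks, and the sign of the members' own change did not hold under all 5 scalings.

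**Figure D4:**
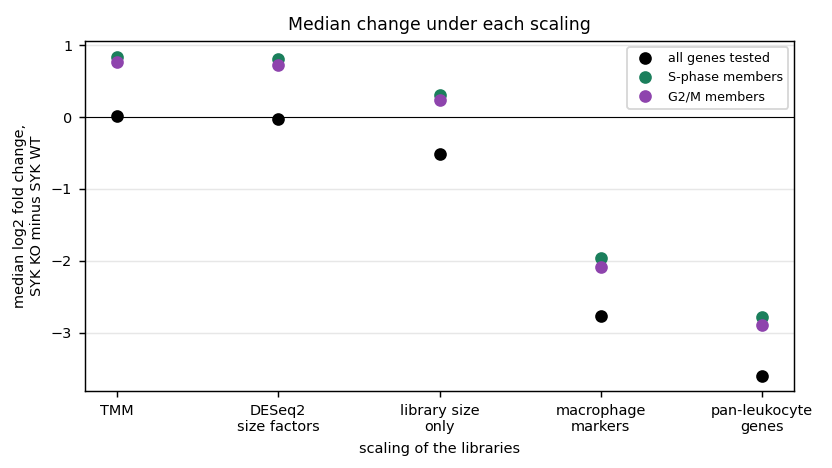
Median log2 fold change (vertical, SYK KO minus SYK WT) of all genes tested (black), S-phase members (green) and G2/M members (purple) under 5 scalings of the libraries. The members lie 0.69 to 0.83 above the median gene, a distance that scaling leaves nearly fixed by construction, while their own medians turn from positive to negative under macrophage and pan-leukocyte scaling.

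Per exon length, in TPM, the S-phase sum was 1006, 835, 935 and 666 TPM in M7, M8, M9 and M10 and the G2/M sum was 859, 713, 792 and 546 TPM. The genotypes overlapped in both sums. On this scale both SYK KO libraries were above both SYK WT libraries for 2 members, *Cenpf* with 6.42, 5.73, 10.5 and 8.52 TPM and *Birc5* with 52.0, 36.6, 54.4 and 54.6 TPM, and below for 15, where 9.78% of all genes were above and 71% below. *Tk1* was among those below, with 34.6, 32.0, 18.8 and 15.7 TPM, and *Uhrf1*, with 84.1, 77.7, 49.9 and 35.8 TPM. *Pcna* had 177, 135, 243 and 139.6 TPM and overlapped. TPM values divide by all transcripts of a library, and mitochondrial transcripts took up to 15.9% of the counts in the SYK KO libraries, whose part in this result was not tested.

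The libraries of a genotype differed from each other in these genes. M7 was higher than M8 for 35 of 40 members, and the ratio of M7 to M8 ran from 0.829 to 1.50. M9 was higher than M10 for 25 members, and the ratio of M9 to M10 ran from 0.740 to 2.06. Smaller exon overlaps with genes of the opposite strand occurred for *Ccna2* (*Exosc9*), *Cdc20* (*Elovl1*), *Cdc45* (*Ufd1*), *Plk1* (*Gm44985*) and *Tk1* (*Afmid*). Calls rested on the spread between libraries. Without M8, the lower of the SYK WT libraries, 6 members passed the test, *Mcm3*, *Tyms*, *Ube2c*, *Cenpf*, *Birc5* and *Top2a*, and without M7, 15 did, where 8.58% and 12.1% of all genes were called higher. Without M9, 25 passed and without M10, 34 did, where 24.8% and 28.9% of all genes were called higher. A genotype left with a single library was assumed to vary like the other. *Cenpf* had a log2 fold change of 1.62 to 1.73 over these 4 fits and *Mcm3* of 1.17 to 1.41, whereas *Uhrf1* and *Ccnb1* turned to -0.018 and -0.065 without M9.

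Of the 14 transcription regulators of these genes, 4 were higher (28.6%, beside 22.7% of all genes) and 0 were lower in edgeR on the TMM scale, and 13 were called lower under macrophage marker scaling, which called 87.0% of all genes lower. At an unadjusted p under 0.05, 0 were lower as well, and DESeq2 called 0 lower. *E2f1*, an activator of S-phase genes, had 40.8, 37.2, 61.5 and 65.4 CPM (log2 fold change 0.70, SE 0.15, adjusted p = 0.0144). *E2f2*, a second activator, had 3.32, 4.44, 11.7 and 12.8 CPM (log2 fold change 1.66, SE 0.30, adjusted p = 0.00748). *Rb1*, the retinoblastoma protein that holds E2F factors back, had 11.5, 12.4, 38.5 and 26.3 CPM (log2 fold change 1.44, SE 0.24, adjusted p = 0.00581), and *Lin9*, a MuvB subunit, had 9.37, 8.59, 16.1 and 18.6 CPM (log2 fold change 0.95, SE 0.23, adjusted p = 0.0190). The SYK KO libraries lay above the SYK WT libraries in these 4 genes, as for 38% of all genes. *Foxm1*, the activator of G2/M genes, had 74.2, 67.8, 56.5 and 56.9 CPM, with both SYK KO libraries below, and did not pass the test (log2 fold change -0.32, SE 0.15, adjusted p = 0.127). *Mybl2*, B-Myb, had 20.8, 20.9, 29.2 and 26.9 CPM (log2 fold change 0.43, SE 0.17, adjusted p = 0.0894). The remaining 8 were not called, *E2f3*, *E2f4*, *E2f7*, *E2f8*, *Tfdp1*, *Lin54*, *Rbl1* and *Rbl2*, with log2 fold changes of -0.028, -0.21, 0.11, 0.63, 0.074, 0.38, 0.49 and -0.27.

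Of 9 genes that carry cells through G1, 6 were higher on the TMM scale (66.7%, beside 22.7% of all genes), and 0 were higher and 7 lower under macrophage marker scaling, which called 87.0% of all genes lower. *Ccnd2*, cyclin D2, had 3.06, 5.09, 28.2 and 40.3 CPM (log2 fold change 3.07, SE 0.33, adjusted p = 0.00161). *Cdk6*, a kinase that cyclins D bind, had 5.50, 10.4, 42.6 and 28.1 CPM (log2 fold change 2.15, SE 0.36, adjusted p = 0.00621). *Myc* had 9.41, 8.02, 27.7 and 22.4 CPM (log2 fold change 1.52, SE 0.22, adjusted p = 0.00413). The log2 fold changes of these 3 genes exceeded that of every S-phase member. *Ccnd1* had 75.0, 78.2, 161 and 137 CPM (log2 fold change 0.96, SE 0.16, adjusted p = 0.00619) and *Ccnd3* 103, 111, 162 and 183 CPM (log2 fold change 0.69, SE 0.16, adjusted p = 0.0176). *Mycn*, the mouse homolog of the amplified oncogene of the tumor line, had 22.2, 21.4, 29.3 and 43.5 CPM (log2 fold change 0.74, SE 0.23, adjusted p = 0.0415). *Cdk4* and *Cdc25a* were not called (log2 fold changes 0.24 and 0.33, adjusted p = 0.297 and 0.208).

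Of 9 inhibitors and antiproliferative genes, 3 were higher (33.3%, beside 22.7% of all genes) and 1 was lower (11.1%, beside 16.7%) on the TMM scale, and 0 were higher and 8 lower under macrophage marker scaling, which called 87.0% of all genes lower. *Cdkn1a*, which encodes p21, an inhibitor of cyclin-dependent kinases and a target of p53, had 44.5, 41.5, 293 and 205 CPM (log2 fold change 2.53, SE 0.22, adjusted p = 0.000952). *Btg1*, an antiproliferative gene, had 215, 244, 717 and 555 CPM (log2 fold change 1.47, SE 0.21, adjusted p = 0.00370), and *Cdkn2c*, the p18 inhibitor of Cdk4 and Cdk6, had 20.3, 20.2, 53.3 and 39.5 CPM (log2 fold change 1.20, SE 0.20, adjusted p = 0.00598). *Cdkn2a*, which encodes p16 and Arf, had 263, 238, 175 and 179 CPM and was lower (log2 fold change -0.50, SE 0.16, adjusted p = 0.0485). *Cdkn1b*, p27, had 209.6, 226, 174 and 171 CPM (log2 fold change -0.34, SE 0.16, adjusted p = 0.133). *Cdkn1c*, *Cdkn2b*, *Cdkn2d* and *Btg2* were not called, with log2 fold changes of 0.39, -0.27, 0.59 and 0.44.

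**Figure D5:**
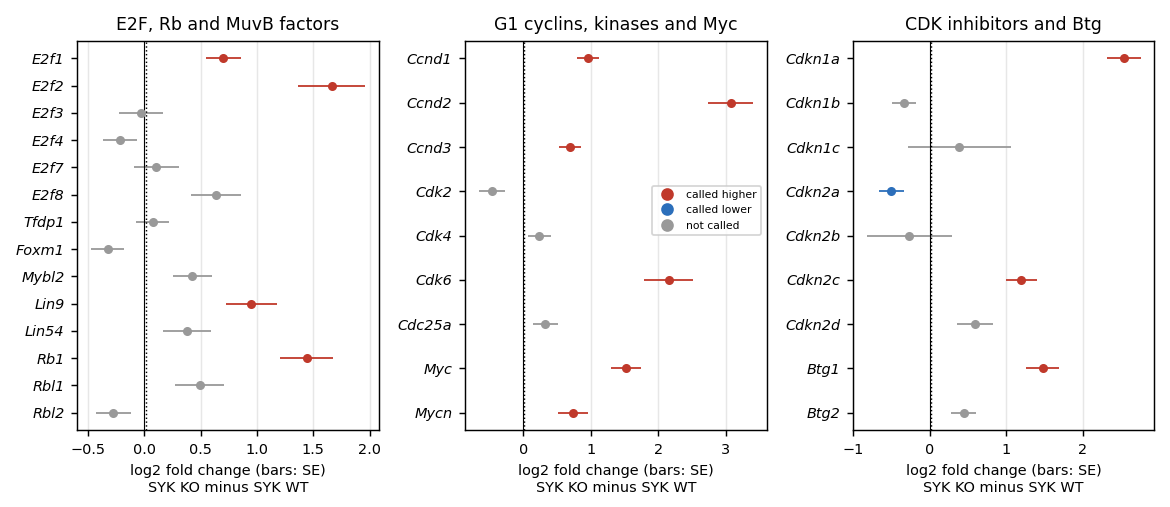
Log2 fold change (horizontal, SYK KO minus SYK WT, TMM scaling) with SE bars for 14 transcription regulators, 9 G1 genes and 9 inhibitors; red passed an adjusted p of 0.05 upward, blue downward and grey not. On this scale *Ccnd2* (3.07) and *Cdkn1a* (2.53) lie farthest to the right and *Cdkn2a* (-0.50) is the single gene called lower, whereas under macrophage marker scaling, which calls 0.766% of all genes higher, 0 genes of the 3 lists are.

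The wider replication machinery had a smaller median change than the members, a difference that was not tested. Of 37 other replication genes, 9 were called higher (24.3%, a share near the background of 22.7%) and 1 was called lower, and their median log2 fold change was 0.33. *Gmnn* and *Fen1* had the largest changes and *Orc3* was the gene called lower. Also called higher were *Pola1*, *Lig1*, *Gins4*, *Dut*, *Rfc1* and *Rpa1*, a polymerase, a ligase, a GINS subunit, a dUTPase, a clamp loader and a single-strand binding protein. Of 43 other genes of mitosis, 19 were higher and 0 were lower in edgeR (44.2% higher, median log2 fold change 0.58), with 0 lower at an unadjusted p under 0.05 and 0 called lower by DESeq2. *Pbk*, a mitotic kinase, had 12.3, 7.93, 28.3 and 23.1 CPM (log2 fold change 1.34, SE 0.27, adjusted p = 0.0115), the largest change of that list, followed by *Nuf2* and *Ndc80*. Under macrophage marker scaling 36 of the 37 and all 43 were called lower, as were 87.0% of all genes.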

How the data were processed

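Read counts per gene from 4 libraries, 2 labelled SYK WT and 2 labelled SYK KO, were analysed. The authors deposited whole-number counts per Ensembl mouse gene, not normalized. The submitters' processing notes name mm10, STAR 2.6.1d, Salmon 1.4.0, SAMtools 1.9, Picard 2.26 and MultiQC 1.11. How whole numbers were made from Salmon's estimates, and whether strand was used, is not given in the sources used here. Instrument and read type differ between the paper (HiSeq, single reads, triplicates) and the labels (NovaSeq, paired reads, 2 libraries per genotype). Salmon can divide reads among similar sequences, so overlapping genes and pseudogenes are given with their own counts.

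GENCODE M21 (GRCm38) gave symbols, positions and exon lengths for 54495 of 54532 genes. Genes passing filterByExpr were fitted in R 4.3.3 with edgeR 4.0.16 (glmQLFit and glmQLFTest, not robust) on TMM-normalized counts, with Benjamini-Hochberg adjustment over 16451 genes and a threshold of 0.05. M7 and M8 had TMM factors of 1.22 and 1.19, and M9 and M10 of 0.876 and 0.787. TPM values were computed from counts and summed exon length. With 2 libraries per genotype an exact permutation test (two-sided) of any single value cannot reach a p under 0.333. Replicates of a genotype differed by more than sampling noise (chi-square per degree of freedom 50.6 for SYK WT and 168 for SYK KO), so no library was taken as a repeat of another. The fit was also run on simulated counts in which a small set of genes changed, as many up as down. Such counts hold no shift in composition between libraries, so that run could not test the choice of scaling.

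All 40 members were to be named, with the 14 transcription regulators, 9 G1 genes and 9 inhibitors, and up to 3 called genes per direction of the lists of other replication and mitosis genes; other genes of these 2 lists named as partners of a member were chosen after their values were seen. Members and lists were chosen with earlier results of these data known. The 12 alternatives were DESeq2 size factors, library size only, scaling by macrophage markers or by pan-leukocyte genes, a filter of 1 count in total or of 10 counts per library, DESeq2 1.42.0 (Wald test), leaving out mitochondrial and 4 rRNA-like genes, and leaving out each library. No batch is given in the labels. Some genes of the lists are counted in the totals but not reported here by name. RefSeq promoter windows (GRCm38.p6) were searched on both strands, and windows of 8 members were not used here.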

Additional observations from a re-analysis of the deposited data

How the results depend on the processing

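The members stayed positive in log2 fold change under DESeq2 size factors, both filters, the DESeq2 Wald test and the omission of mitochondrial and rRNA-like genes, with 25 to 27 called higher and 0 called lower. In those fits 13.5% to 24.5% of all genes were called higher and 10.9% to 20.2% lower. Under library size only (10.2% of all genes higher, 32.9% lower) 5 members were called higher, the S-phase and G2/M medians were 0.31 and 0.23, and 11 fold changes turned negative: *Mcm4* -0.080, *Cdt1* -0.30, *Cdc45* -0.22, *Uhrf1* -0.43, *Tk1* -0.45, *Ccne1* -0.056, *Ccnb1* -0.31, *Aurkb* -0.14, *Bub1b* -0.098, *Cdc20* -0.14, *Kif11* -0.10. Calls higher and lower in the other lists were then 2 and 2 (other replication), 0 and 1 (other mitosis), 2 and 3 (transcription regulators), 3 and 1 (G1 genes), 2 and 2 (inhibitors). Macrophage marker scaling (87.0% of all genes lower) gave 0 members higher and 40 lower, medians of -1.96 and -2.08, and calls higher and lower of 0 and 36 (other replication), 0 and 43 (other mitosis), 0 and 13 (transcription regulators), 0 and 7 (G1 genes), 0 and 8 (inhibitors), with log2 fold changes of *Mcm2* -2.13, *Mcm3* -1.49, *Mcm4* -2.32, *Mcm5* -1.94, *Mcm6* -1.90, *Mcm7* -2.18, *Cdc6* -1.88, *Cdt1* -2.52, *Mcm10* -1.75, *Cdc45* -2.46, *Gins1* -1.58, *Gins2* -1.99, *Pcna* -1.52, *Uhrf1* -2.70, *Rrm1* -1.98, *Rrm2* -1.60, *Tyms* -1.52, *Tk1* -2.69, *Ccne1* -2.30, *Ccne2* -1.87, *Ccna2* -2.16, *Ccnb1* -2.61, *Ccnb2* -2.05, *Cdk1* -2.11, *Plk1* -1.85, *Aurka* -2.25, *Aurkb* -2.46, *Bub1* -2.24, *Bub1b* -2.42, *Cdc20* -2.41, *Ube2c* -1.53, *Cenpa* -1.88, *Cenpe* -2.19, *Cenpf* -1.10, *Birc5* -1.36, *Kif11* -2.40, *Kif20a* -1.98, *Tpx2* -1.88, *Mki67* -1.74, *Top2a* -1.57. Pan-leukocyte scaling (92.8% of all genes lower) gave 0 members higher and 40 lower, medians of -2.78 and -2.89, and calls higher and lower of 0 and 37 (other replication), 0 and 43 (other mitosis), 0 and 14 (transcription regulators), 0 and 8 (G1 genes), 0 and 9 (inhibitors), with log2 fold changes of *Mcm2* -2.96, *Mcm3* -2.32, *Mcm4* -3.15, *Mcm5* -2.77, *Mcm6* -2.73, *Mcm7* -3.00, *Cdc6* -2.71, *Cdt1* -3.35, *Mcm10* -2.59, *Cdc45* -3.29, *Gins1* -2.40, *Gins2* -2.80, *Pcna* -2.34, *Uhrf1* -3.52, *Rrm1* -2.79, *Rrm2* -2.43, *Tyms* -2.35, *Tk1* -3.52, *Ccne1* -3.13, *Ccne2* -2.69, *Ccna2* -2.98, *Ccnb1* -3.42, *Ccnb2* -2.88, *Cdk1* -2.91, *Plk1* -2.68, *Aurka* -3.07, *Aurkb* -3.27, *Bub1* -3.06, *Bub1b* -3.23, *Cdc20* -3.24, *Ube2c* -2.36, *Cenpa* -2.70, *Cenpe* -2.98, *Cenpf* -1.92, *Birc5* -2.20, *Kif11* -3.22, *Kif20a* -2.81, *Tpx2* -2.71, *Mki67* -2.56, *Top2a* -2.39. These 2 scalings set the marker genes themselves about equal between libraries. On the TMM scale those genes had median log2 fold changes of 3.01 (macrophage) and 3.57 (pan-leukocyte), beside 0.81 for all 40 members. With all genes of at least 1 count, 26596 genes were tested and 0 inhibitors were called lower. Leaving out 1 library at a time gave 6 to 34 members higher and 0 to 0 lower, S-phase medians of 0.70 to 0.84 and G2/M medians of 0.54 to 0.89. Calls higher then ran over 1 to 12 (other replication), 2 to 28 (other mitosis), 1 to 8 (transcription regulators), 3 to 6 (G1 genes), 3 to 6 (inhibitors), and calls lower over 0 to 2 (other replication), 0 to 0 (other mitosis), 0 to 0 (transcription regulators), 0 to 1 (G1 genes), 0 to 1 (inhibitors). Without SYK KO replicate 9, *Uhrf1* -0.018 and *Ccnb1* -0.065 turned negative, and without SYK KO replicate 10 they were 0.15 and 0.40. Fewest members were called without M8 (6, with 8.58% of all genes higher) and most without M10 (34, with 28.9%). The cause of the shifts between these settings was not tested. No paired analysis was possible because the genotypes share no replicate number and the labels give no pairing. With 2 libraries per genotype, the members' SE of 0.145 to 0.332 on the log2 scale limits which changes could pass the test: the smallest called was 0.56 and the largest not called 0.79.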
